A study of Mus musculus with 9 samples.

Results

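The RNA levels of 10 genes were followed in mouse hearts after myocardial infarction. The genes were picked by symbol as known markers of mesothelial and epicardial cells (Wt1, Tbx18, Msln, Muc16, Lrrn4, Upk1b, Upk3b, Krt8, Krt18 and Krt19), and all 10 were found among the 25468 genes measured. RNA sequencing of bulk heart tissue gave 3 libraries from wild-type mice 7 days after the infarction (labelled AMI), 3 from wild-type mice 1 day after it and 3 from sham-operated wild-type mice. The labels name no strain, age or sex, no part of the heart and no day for the sham hearts, and day 7 and day 1 were set against the same 3 sham libraries. Hearts of Hdc-/- mice, which the design text also mentions, were not analysed here.

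The epicardium is the mesothelial sheet that covers the heart. In the embryo some of its cells undergo an epithelial-mesenchymal transition and form fibroblasts and mural cells of the vessels. In the adult it is largely quiescent, and after injury it is known to switch embryonic genes back on, among them the transcription factor genes Wt1 and Tbx18. Mesothelial cells of all body cavities share a coat of surface proteins, including mesothelin (Msln), and a cytoskeleton of simple-epithelial keratins.

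Levels are given in FPKM, the authors' fragment counts normalised to transcript length and library size, summed over the transcripts of a gene, so that genes can be compared with each other per length. The number of reads behind a value is unknown. Every fold change was taken on log2(FPKM + 1), so that changes of genes with a low level come out too small, and its error is the standard error (SE) from limma. A gene was called at a Benjamini-Hochberg adjusted p under 0.05 over the 13514 genes with a mean of 1 FPKM or more, which included all 10 genes. In bulk tissue, more cells of a type and more RNA per cell cannot be told apart. The labels do not state whether each library is a different animal, so the p-values cover the spread between libraries, technical or otherwise.

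Heart muscle genes were high in every library but lower after infarction. In FPKM, 7 markers summed to 29532 to 32234 in sham. They summed to 12064 to 21237 at day 7 and to 15405 to 18941 at day 1. Against sham, 5 of the 7 were called lower at day 7 and 4 at day 1 (17.3% and 14.7% of all genes tested), and 0 higher. FPKM are relative to library size, and the part of this fall in the rises of other genes was not tested. Markers of neighbouring tissues differed between libraries of the same group. Myl7, an atrial myosin light chain, had 497, 127 and 227 FPKM at day 7 (replicates 1, 2 and 3), 2403, 928 and 35.0 FPKM at day 1 and 619, 13.2 and 30.1 FPKM in sham. The summed level of 15 airway and alveolar genes was 1918 FPKM in day 1 replicate 2 and 279 FPKM in sham replicate 1, against 4.53 to 31.7 FPKM in the other 7 libraries. Sham replicate 1 also stood apart in fat cell genes, with Adipoq at 69.0 FPKM against 21.6 FPKM or less elsewhere. Day 7 replicate 2 stood apart in skeletal muscle and T cell genes, with summed levels of 277 and 72.8 FPKM against at most 16.4 and 13.7 FPKM elsewhere.

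At day 7, 6 of the 10 genes were higher than in sham and 0 were lower (Wt1, Tbx18, Msln, Muc16, Lrrn4 and Upk1b). Over all genes tested, 15.7% were higher and 17.3% lower in that comparison. The median log2 fold change of the 10 genes was 1.49, against -0.02 for all genes tested, and all 10 values were positive. For 7 of the 10 genes the day 7 libraries all lay above the sham libraries, as for 25.0% of all genes tested, and for 28.8% they all lay below. At day 1, limma called 0 of the 10 genes, where 13.4% of all genes tested were higher and 14.7% lower, and 0 of the 10 had an unadjusted p under 0.05. For 0 of the 10 were the day 1 libraries separate from sham, against 22.5% of all genes separate and higher and 25.1% separate and lower. Their median log2 fold change at day 1 was 0.37, over a range of -0.44 to 1.51. Between the 2 times, 3 of the 10 (Wt1, Tbx18 and Muc16) were higher at day 7 than at day 1 and 0 were lower, where 2.71% of all genes tested were higher and 2.14% lower. For 7 of the 10 the day 7 libraries all lay above the day 1 libraries, against 13.1% of all genes, with 14.1% all below. The count of 6 at day 7 fell to 2 without sham replicate 2, sham replicate 3 or day 7 replicate 1 and to 3 without day 7 replicate 3, and the count of 3 between the times fell to 0 without day 1 replicate 2, day 7 replicate 1 or day 7 replicate 3 and to 1 without day 1 replicate 3. Rescaled to a common total (TPM), 7 of the 10 were higher at day 7 and 0 at day 1. That scaling gave 3809 genes higher and 527 lower at day 7 and 2445 and 601 at day 1, against 2127 and 2341 at day 7 and 1817 and 1993 at day 1 with the deposited values.

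**Figure D1:**
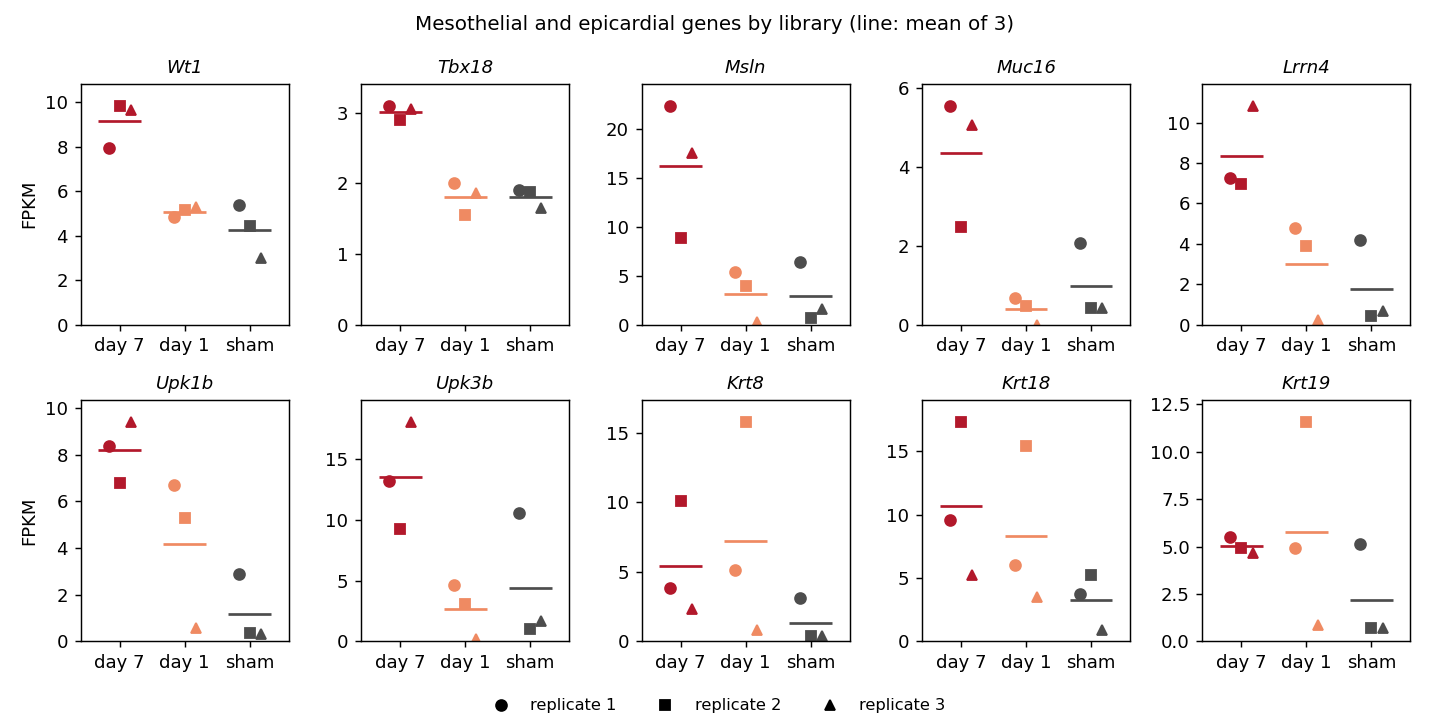
Level of each of the 10 genes in FPKM (y axis) in every library at day 7, day 1 and in sham, with the marker shape for the replicate and the group mean as a line. Wt1, Tbx18, Msln, Muc16, Lrrn4 and Upk1b are highest in all 3 day 7 libraries, and the surface protein genes have a high sham replicate 1 and a low day 1 replicate 3.

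Wt1 encodes a zinc finger transcription factor that is needed for the embryonic epicardium and is used as its marker. Its level was 7.97, 9.86 and 9.65 FPKM at day 7, 4.85, 5.14 and 5.28 FPKM at day 1 and 5.37, 4.42 and 3.0 FPKM in sham. All 3 day 7 libraries lay above all 6 others, and the day 1 libraries lay close together within the range of the sham libraries. The mean was 9.16 ± 1.04 FPKM at day 7 and 4.26 ± 1.19 FPKM in sham (SD, n = 3 each), a log2 fold change of 0.97 (SE 0.16, adjusted p = 0.00538). Against day 1, at 5.09 ± 0.217 FPKM (SD, n = 3), Wt1 was higher at day 7 by 0.73 on the log2 scale (SE 0.16, adjusted p = 0.0394). At day 1 the difference from sham did not pass the test (log2 fold change 0.24, SE 0.16, adjusted p = 0.298).

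The file splits Wt1 into 6 transcripts, the only one of the 10 genes with more than 1. The 2 most abundant together held between 64.8% and 93.6% of the gene's level in a library. The first, ENSMUST00000143043, was at 4.44, 5.02 and 5.96 FPKM at day 7, 2.42, 1.73 and 2.55 FPKM at day 1 and 2.25, 1.71 and 1.54 FPKM in sham. The second, ENSMUST00000139585, was at 2.87, 3.59 and 3.08 FPKM at day 7, 1.51, 1.60 and 2.23 FPKM at day 1 and 1.90, 2.10 and 0.869 FPKM in sham. Both were higher in every day 7 library than in every other library. The sources used here do not say how reads were divided among transcripts, so the split is less certain than the sum.

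Tbx18 encodes a T-box transcription factor of the embryonic epicardium and sinus node that is also present in mural cells. It was at 3.10, 2.89 and 3.05 FPKM at day 7, 2.0, 1.55 and 1.87 FPKM at day 1 and 1.91, 1.88 and 1.65 FPKM in sham. The day 7 libraries did not overlap the others, and day 1 and sham overlapped. The level was 3.01 ± 0.109 FPKM at day 7 and 1.81 ± 0.139 FPKM in sham (SD, n = 3 each), a log2 fold change of 0.51 (SE 0.10, adjusted p = 0.00799). Relative to day 1, at 1.80 ± 0.234 FPKM (SD, n = 3), the log2 fold change at day 7 was 0.52 (SE 0.10, adjusted p = 0.0261). In the annotation used for gene overlaps, an exon of D030062O11Rik on the opposite strand overlaps an exon of Tbx18.

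The calls of Wt1 and Tbx18 at day 7 against sham held under every alternative tried, with adjusted p of at most 0.0249 over 26 alternatives for Wt1 and 0.0490 over 25 for Tbx18. Between day 7 and day 1, 12 of 26 alternatives ended the call for Wt1 (highest adjusted p = 0.117) and 9 of 25 that for Tbx18 (highest adjusted p = 0.140). Leaving out day 1 replicate 2, day 7 replicate 1 or day 7 replicate 3 ended it for both genes. For Wt1 it was also lost without sham replicate 2, day 1 replicate 1, day 1 replicate 3 or day 7 replicate 2.

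**Figure D2:**
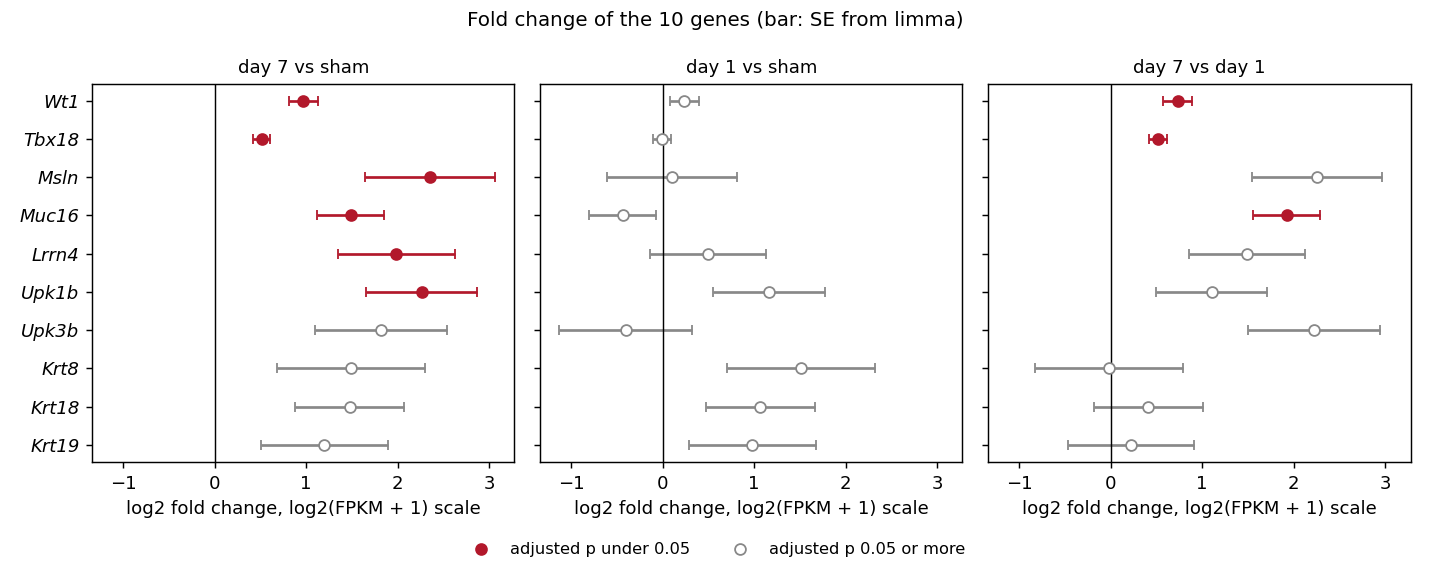
Log2 fold change on the log2(FPKM + 1) scale (x axis) of each of the 10 genes with its SE from limma, for day 7 against sham, day 1 against sham and day 7 against day 1, filled where the adjusted p was under 0.05. The filled points are 6 genes at day 7 against sham, 0 at day 1 against sham and 3 at day 7 against day 1, and Wt1 and Tbx18 have the shortest error bars.

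The surface protein genes had larger fold changes and varied more between libraries. Msln encodes mesothelin, a protein anchored to the membrane by a lipid. It was at 22.4, 8.92 and 17.5 FPKM at day 7, 5.40, 3.92 and 0.249 FPKM at day 1 and 6.46, 0.656 and 1.59 FPKM in sham. All day 7 libraries were above all others, while sham replicate 1 lay above all 3 day 1 libraries. Mean levels were 16.3 ± 6.84 FPKM at day 7 and 2.90 ± 3.12 FPKM in sham (SD, n = 3 each), and the log2 fold change was 2.36 (SE 0.71, adjusted p = 0.0345). Against day 1, at 3.19 ± 2.65 FPKM (SD, n = 3), the day 7 libraries did not overlap but the difference missed the threshold (log2 fold change 2.26, SE 0.71, adjusted p = 0.106).

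Muc16 encodes the large membrane mucin known as the antigen CA125, which binds mesothelin. It had 5.55, 2.47 and 5.06 FPKM at day 7, 0.688, 0.485 and 0 FPKM at day 1 and 2.07, 0.416 and 0.431 FPKM in sham. The lowest day 7 library was above the highest of the others, and day 1 replicate 3 was listed at 0. The difference was 1.49 on the log2 scale between day 7 and sham (SE 0.37, adjusted p = 0.0175) and 1.93 between day 7 and day 1 (SE 0.37, adjusted p = 0.0280). At day 1 the value against sham was -0.44 (SE 0.37, adjusted p = 0.399).

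Lrrn4 encodes a membrane protein with leucine-rich repeats that marks mesothelium. Its levels were 7.24, 6.98 and 10.8 FPKM at day 7, 4.81, 3.90 and 0.238 FPKM at day 1 and 4.19, 0.423 and 0.698 FPKM in sham. Again the day 7 libraries were separate and the other groups overlapped. The log2 fold change was 1.99 at day 7 against sham (SE 0.64, adjusted p = 0.0427) and 1.49 at day 7 against day 1 (SE 0.64, adjusted p = 0.205).

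Upk1b and Upk3b encode uroplakins, membrane proteins first known from the lining of the bladder and also made by mesothelium. Upk1b, a tetraspanin, was at 8.37, 6.80 and 9.41 FPKM at day 7, 6.71, 5.29 and 0.586 FPKM at day 1 and 2.88, 0.334 and 0.326 FPKM in sham. Day 7 was separate from both other groups, and day 1 replicates 1 and 2 lay between the day 7 and the sham libraries. The log2 fold change was 2.27 at day 7 (SE 0.61, adjusted p = 0.0239) and 1.16 at day 1 (SE 0.61, adjusted p = 0.183), each against sham. Without day 1 replicate 3 the day 1 value was 1.87 (adjusted p = 0.0205).

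Upk3b was at 13.3, 9.30 and 18.1 FPKM at day 7, 4.64, 3.07 and 0.196 FPKM at day 1 and 10.6, 1.05 and 1.69 FPKM in sham. Sham replicate 1 lay above day 7 replicate 2, and the day 7 value against sham missed the threshold (log2 fold change 1.82, SE 0.72, adjusted p = 0.0830). Without sham replicate 1 it was 2.59 (adjusted p = 0.0278). The other uroplakin genes were low: Upk1a was at 0.221 to 0.647 FPKM, Upk2 at 0.282 FPKM or less and Upk3bl at 0.0783 FPKM or less in every library, and Upk3a was listed at 0 in all 9.

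For these surface genes the call at day 7 against sham depended on single libraries and on the processing. Leaving out sham replicate 2 ended it for Msln, Muc16, Lrrn4 and Upk1b (adjusted p = 0.116, 0.0645, 0.137 and 0.0826), as did leaving out sham replicate 3 (0.0901, 0.0545, 0.116 and 0.0713) or day 7 replicate 1 (0.107, 0.0610, 0.0908 and 0.0656). Without day 7 replicate 3 it was lost for Msln, Lrrn4 and Upk1b (0.0767, 0.102 and 0.0552), and for Lrrn4 also without day 1 replicate 2 (0.0510) or day 7 replicate 2 (0.0777). With all libraries kept, it was lost without the filter on low values for Msln and Lrrn4 (0.0627 and 0.0755), and with a pseudocount of 0.1 for Msln, Muc16 and Lrrn4 (0.0681, 0.0614 and 0.0736). For Muc16 the call at day 7 against day 1 was lost without day 1 replicate 2, day 1 replicate 3, day 7 replicate 1 or day 7 replicate 3 (0.0778, 0.0592, 0.0759 and 0.0879).

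The start regions of 6 of the 10 genes were found in the RefSeq table of build GRCm38.p6, which is another build than the authors used. The 250 bases before the annotated start are shown for the 3 surface genes among them, since these genes varied together from library to library. They are chr2:132880863-132881112 (minus strand) for Lrrn4, chr5:136038246-136038495 (plus strand) for Upk3b and chr9:18674604-18674853 (minus strand) for Muc16, written in the direction of transcription. Capitals mark CATTCC or its reverse complement GGAATG, the core motif of the TEAD factors.
Lrrn4: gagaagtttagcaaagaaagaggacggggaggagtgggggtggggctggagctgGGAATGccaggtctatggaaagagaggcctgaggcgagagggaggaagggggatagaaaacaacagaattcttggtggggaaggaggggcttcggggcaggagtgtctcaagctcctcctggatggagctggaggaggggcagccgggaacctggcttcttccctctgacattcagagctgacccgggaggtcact
Upk3b: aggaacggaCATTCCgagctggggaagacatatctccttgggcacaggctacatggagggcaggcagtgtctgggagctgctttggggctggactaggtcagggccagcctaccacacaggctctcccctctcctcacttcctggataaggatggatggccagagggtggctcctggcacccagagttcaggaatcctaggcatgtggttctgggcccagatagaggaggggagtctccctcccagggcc
Muc16: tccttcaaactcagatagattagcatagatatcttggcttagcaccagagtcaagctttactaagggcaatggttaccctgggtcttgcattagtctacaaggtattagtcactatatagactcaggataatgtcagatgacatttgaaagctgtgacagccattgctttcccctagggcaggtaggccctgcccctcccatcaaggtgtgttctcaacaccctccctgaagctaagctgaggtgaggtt
The motif stood in 2 of the 6 regions, starting 196 bases before the start of Lrrn4 and 241 bases before that of Upk3b, and in 12.6% of 32851 regions of the same length. A WT1 motif, GCGTGGGAG on either strand, was in 0 of the 6 and in 0.405% of all regions. These matches describe the sequence only. Of 10 tested genes of the TEAD and YAP pathway, 2 rose and 1 fell at day 7 against sham, a share near the 15.7% and 17.3% of all genes (Tead3 at 0.63 ± 0.10, Tead2 at 0.54 ± 0.13 and Ankrd1 at -1.21 ± 0.32, log2 fold change ± SE), and Ankrd1 is also a gene of heart muscle. The list held 12 genes, but its target genes Ccn1 and Ccn2 were not found under these symbols.

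The proportions among the surface genes differed between the groups although the level of Upk3b varied 23.6-fold within day 1. The ratios of FPKM within a library do not depend on how libraries are scaled. They were examined after the levels had been seen, for all 6 pairs of Msln, Upk1b, Upk3b and Lrrn4. The ratio of Upk3b to Lrrn4 was 1.83, 1.33 and 1.67 at day 7, 0.966, 0.787 and 0.827 at day 1 and 2.52, 2.48 and 2.42 in sham. In sham this ratio stayed nearly constant while Upk3b was 10.1 times and Lrrn4 9.91 times as high in replicate 1 as in replicate 2. The 3 groups did not overlap, with sham highest and day 1 lowest.

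The ratio of Upk1b to Upk3b was 0.631, 0.732 and 0.520 at day 7, 1.45, 1.72 and 2.99 at day 1 and 0.272, 0.318 and 0.193 in sham. It was highest at day 1 and lowest in sham, again without overlap, and its mean on the log2 scale was 1.28 higher at day 7 than in sham and 2.93 higher at day 1 than in sham. The ratio of Upk1b to Lrrn4 had the same order, at 0.868 to 1.16 at day 7, 1.36 to 2.47 at day 1 and 0.467 to 0.790 in sham. An exact permutation test of the 3 groups over 1680 assignments gave p = 0.00357 for each of these 3 ratios, the smallest it can give (adjusted p = 0.00714 over the 6 pairs). For Msln to Upk1b the p was 0.0143 (adjusted 0.0214), and the day 7 and sham ranges overlapped. For Msln to Upk3b and Msln to Lrrn4 the exact permutation test missed the threshold (adjusted p = 0.0814 and 0.125). The 6 ratios come from 4 genes and are not independent of each other, and day 1 replicate 3 contributes ratios of values of 0.586 FPKM or less. No other gene pairs were tested this way, so the share of all pairs that separate the 3 groups is unknown.

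**Figure D3:**
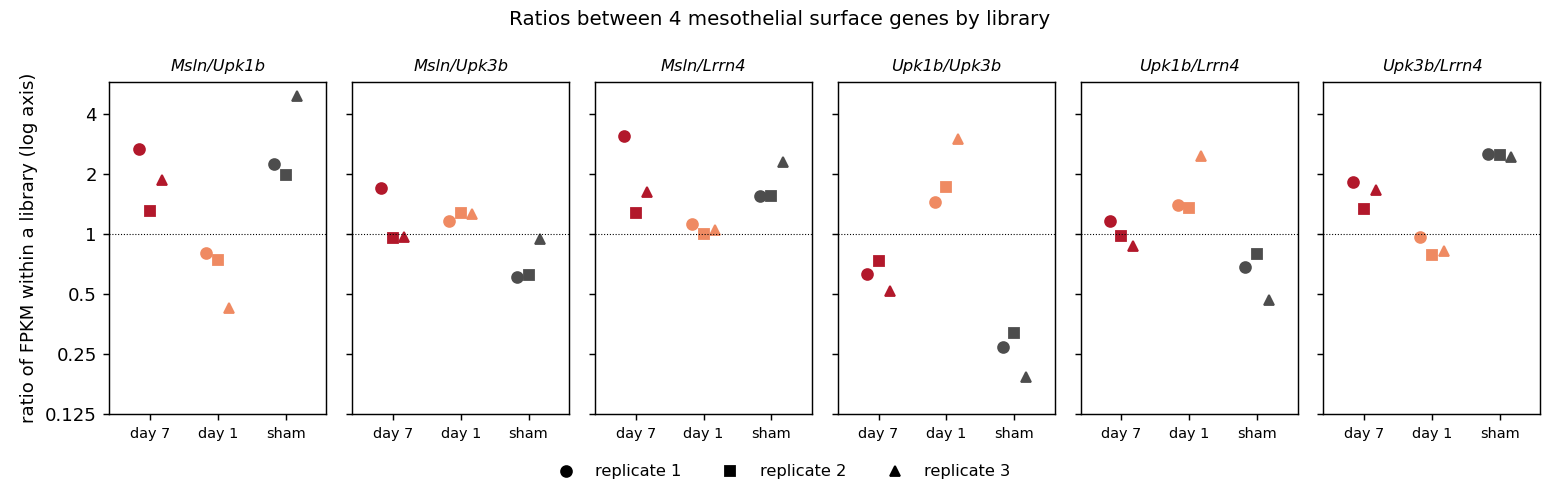
Ratio of FPKM within each library (y axis, log scale) for the 6 pairs of Msln, Upk1b, Upk3b and Lrrn4 at day 7, day 1 and in sham. For Upk1b/Upk3b, Upk1b/Lrrn4 and Upk3b/Lrrn4 the 3 groups occupy separate ranges, with day 7 between day 1 and sham.

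The keratin genes Krt8, Krt18 and Krt19 encode filament proteins of simple epithelia, where a type II keratin (Krt8) pairs with a type I keratin (Krt18 or Krt19). None of the 3 was called in any of the 3 comparisons, although some alternatives gave calls. Krt8 was at 3.84, 10.1 and 2.29 FPKM at day 7, 5.12, 15.8 and 0.779 FPKM at day 1 and 3.08, 0.384 and 0.398 FPKM in sham. Krt18 was at 9.59, 17.3 and 5.25 FPKM at day 7, 5.99, 15.4 and 3.49 FPKM at day 1 and 3.69, 5.23 and 0.912 FPKM in sham. Krt19 was at 5.50, 4.91 and 4.66 FPKM at day 7, 4.90, 11.6 and 0.858 FPKM at day 1 and 5.13, 0.719 and 0.699 FPKM in sham.

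For Krt8 and Krt18 the highest libraries were day 1 replicate 2 and day 7 replicate 2, and for Krt19 day 1 replicate 2 alone. The log2 fold changes at day 7 against sham were 1.495, 1.48 and 1.20 for Krt8, Krt18 and Krt19 (adjusted p = 0.181, 0.0863 and 0.205), and at day 1 against sham 1.51, 1.07 and 0.98 (adjusted p = 0.193, 0.212 and 0.317). Only Krt18 had no overlap between day 7 and sham. Krt18 was called at day 7 with TPM (log2 fold change 1.88, adjusted p = 0.0473), and Krt8 at day 1 without day 1 replicate 3 (2.35, adjusted p = 0.0393). The ratio of Krt8 to Krt18, neighbours on chromosome 15, ranged from 0.401 to 0.583 at day 7, from 0.223 to 1.02 at day 1 and from 0.0733 to 0.834 in sham. An exon of Gm36026 on the opposite strand overlaps an exon of Krt8, and the sources used here do not say whether strand was used in counting.

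Epithelial cells of other organs express these keratins too. The deviations from group means of the airway and alveolar list had an r of 0.88 with Krt19, 0.83 with Krt8 and 0.63 with Krt18 over the 9 libraries. For the fat cell list r was 0.91 with Krt19 and 0.87 with Krt8. In day 1 replicate 2, all 15 airway and alveolar genes were above 0, and the surfactant gene Sftpc was at 728 FPKM and the club cell gene Scgb1a1 at 780.2 FPKM. In sham replicate 1, Scgb1a1 was at 172 FPKM while Sftpc was at 0.0619 FPKM, and 2 of the 15 genes were listed at 0. In day 7 replicate 2 the 15 genes summed to 5.95 FPKM with 5 at 0, and the basal keratin genes Krt5 and Krt17 were at 6.18 and 3.71 FPKM, against at most 0.523 and 0.456 FPKM in the other libraries. The part of such cells in the keratin values was not tested. With the airway level as a covariate, an alternative chosen after seeing the data, Krt8, Krt18 and Krt19 were called at day 7 against sham (log2 fold changes 1.73, 1.61 and 1.41, adjusted p = 0.0312, 0.0397 and 0.0211). In that fit 15.4% of all genes were higher and 17.8% lower. The airway list had been seen to vary with these keratins in the same libraries, so a smaller SE for them was given in advance. Among 8 further keratins 3 could be tested, and Krt14 rose to 2.66 ± 0.903 FPKM at day 7, against 0.0759 ± 0.0629 FPKM in sham (SD, n = 3 each, log2 fold change 1.74, SE 0.29, adjusted p = 0.00547).

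Within the groups, the surface genes varied together from library to library. The deviations of Msln, Upk1b, Upk3b and Lrrn4 from their group means on the log2 scale had a Pearson r of 0.93 to 0.99 between the members of the 6 pairs, over 9 libraries in 3 groups. Muc16 followed them (0.82 to 0.92), and so did Krt19 (0.84 to 0.90). Against the same 4 genes, r was 0.11 to 0.35 for Wt1 and 0.07 to 0.19 for Tbx18. These r values are descriptions, since the genes share the libraries and their scaling.

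Markers of other tissues varied with the surface genes, atrial genes most closely. The deviations of the mean log2 level of 5 atrial genes had an r of 0.96, 0.96, 0.91 and 0.91 with Msln, Upk1b, Upk3b and Lrrn4, but of 0.14 with Wt1 and 0.19 with Tbx18. The summed level of the 5 atrial genes was 775 to 5405 FPKM at day 7, 282 to 11057 FPKM at day 1 and 229 to 2677 FPKM in sham. The 5 genes did not always go together. In sham replicate 2, Nppa was at 1413 FPKM of a sum of 1446 FPKM, with Myl7 at 13.2 FPKM. Bmp10 was at 0.241 FPKM in sham replicate 1, where Myl7 was at 619 FPKM, and at 110 FPKM in day 1 replicate 1. Myl7 itself had a log2 fold change against sham of 1.91 ± 1.72 (SE) at day 7 and 2.73 ± 1.72 at day 1, with adjusted p = 0.414 and 0.266. For Msln, Upk1b, Upk3b and Lrrn4, r with the fat cell list was 0.73, 0.83, 0.83 and 0.85, and with the airway and alveolar list 0.57, 0.61, 0.54 and 0.61. The part of these tissues in the surface gene values was not tested.

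With the atrial level as a covariate, chosen after seeing the data, 6 of the 10 genes were higher at day 7 than in sham (12.8% of all genes in that fit), among them Msln (log2 fold change 1.54, SE 0.25, adjusted p = 0.00884) and Upk1b (1.57, SE 0.21, adjusted p = 0.00650). Between day 7 and day 1 the count became 7 (4.02% of all genes in that fit were higher and 3.37% lower), with Msln, Upk1b, Upk3b and Lrrn4 added (log2 fold changes 2.63, 1.42, 2.58 and 1.80, adjusted p = 0.00284, 0.0100, 0.00805 and 0.0149). In the same fit Msln, Muc16 and Upk3b were lower at day 1 than in sham (6.9% of all genes in that fit were lower; -1.09, -0.96 and -1.55, adjusted p = 0.0342, 0.0450 and 0.0358), whereas Upk1b was not called (0.15, SE 0.23, adjusted p = 0.676). Wt1 and Tbx18 hardly moved, at 0.94 and 0.50 at day 7 against sham. The atrial list had been seen to vary with the surface genes in these same libraries. A smaller SE for them was thus given in advance, and the calls of this fit are no independent support. The atrial genes had a median log2 fold change against sham of 2.52 at day 1 and 1.91 at day 7. The values of this fit are therefore adjusted for a level that itself differed between the group means.

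**Figure D4:**
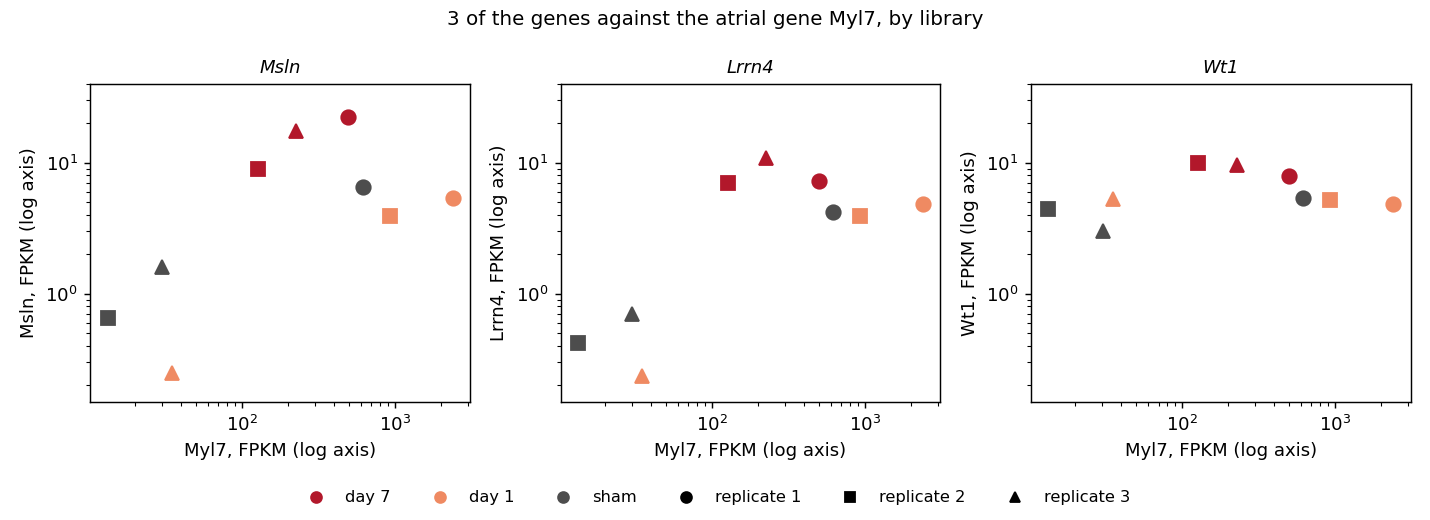
Level of Msln, Lrrn4 and Wt1 in FPKM (y axes, log scale) against the atrial gene Myl7 in FPKM (x axes, log scale), with each library a point, coloured by group. The low Msln and Lrrn4 values of sham replicates 2 and 3 and day 1 replicate 3 come with Myl7 at 13.2 to 35.0 FPKM, whereas Wt1 in those 3 libraries is at 3.0 to 5.28 FPKM and its day 7 points lie highest.

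**Figure D5:**
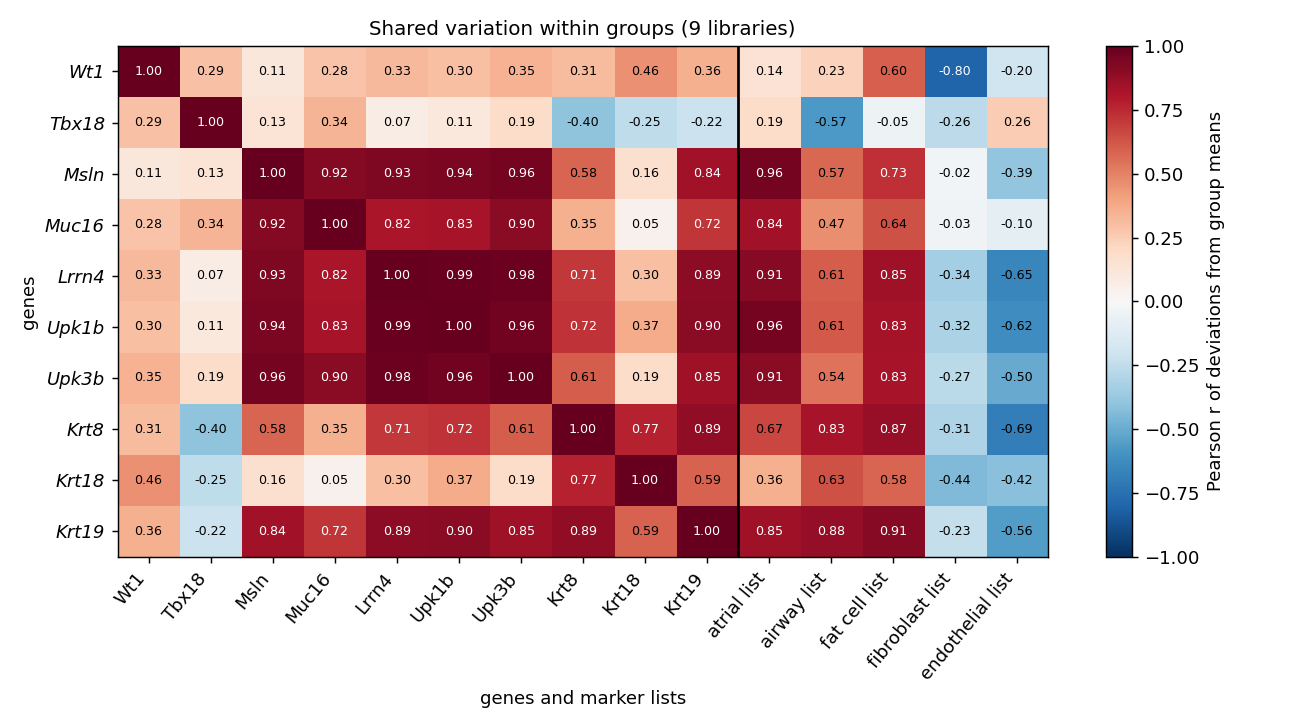
Pearson r of deviations from group means on the log2(FPKM + 1) scale over the 9 libraries, for each of the 10 genes (rows) with the others and with the mean log2 level of 5 marker lists (columns right of the line). Msln, Muc16, Lrrn4, Upk1b, Upk3b and Krt19 form a block of high values that includes the atrial list, and Wt1 and Tbx18 stand outside it.

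Other genes of the mesothelium and epicardium were also higher at day 7. Of 15 tested from a list of 17, 11 were higher and 0 lower than in sham (15.7% and 17.3% of all genes), with a median log2 fold change of 1.21 (-0.02 over all genes tested). Like the other gene lists, this one was chosen with earlier results of these data known, so its count is no independent support. Anxa8, an annexin that binds membrane lipids, was at 6.65 ± 2.51 FPKM at day 7 and 0.761 ± 0.560 FPKM in sham (SD, n = 3 each, log2 fold change 2.12, adjusted p = 0.00338). Nkain4 rose by 1.99 ± 0.64 and Pdpn, which encodes the surface glycoprotein podoplanin, by 1.71 ± 0.20 (log2 fold change ± SE). Bnc1, a zinc finger gene of mesothelium, was below the level for testing, at 1.29 to 1.91 FPKM at day 7, 0.0325 to 0.774 FPKM at day 1 and 0.129 to 0.791 FPKM in sham.

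At day 1, 3 of these 15 genes were higher than in sham and 0 were lower, not far from the 13.4% and 14.7% of all genes. They were Aldh1a2, the enzyme gene of retinoic acid synthesis in the epicardium (2.39 ± 0.44), Pdpn (1.96 ± 0.20) and Bnc2 (0.77 ± 0.18). Aldh1a2 was at 9.65, 10.98 and 12.4 FPKM at day 7, 19.3, 15.8 and 35.7 FPKM at day 1 and 4.82, 1.13 and 5.96 FPKM in sham. It was highest in day 1 replicate 3, the library in which Msln, Upk3b, Lrrn4 and Muc16 were lowest. Between the times 5 of the 15 were higher at day 7 (2.71% of all genes), led by Anxa8 (1.84 ± 0.30), the WNT enhancer gene Rspo1 (1.83 ± 0.39) and Sema3d, which encodes a secreted semaphorin (1.41 ± 0.29). Several of these genes are also expressed by fibroblasts, and the summed level of 8 activated fibroblast genes was 3314 to 5239 FPKM at day 7, 1383 to 1625 FPKM at day 1 and 434 to 707 FPKM in sham. Within the groups Wt1 deviated against that fibroblast list (r of -0.80), while the 4 surface genes had r of -0.34 to -0.02 with it. The part of fibroblasts in these values was not tested.

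Genes of the epithelial-mesenchymal transition were higher in 5 of 9 cases and lower in 1 at day 7 against sham, where 15.7% of all genes were higher and 17.3% lower. Vim, the mesenchymal filament gene, rose by 1.20 ± 0.19, and the transcription factor genes Twist1 and Snai2 by 0.97 ± 0.17 and 0.81 ± 0.16. Cdh2, the N-cadherin gene that heart muscle also expresses, fell by 0.66 ± 0.20. At day 1, 3 of the 9 were higher (13.4% of all genes), with Snai1 (1.53 ± 0.23) ahead of Vim (1.24 ± 0.19) and Zeb2 (1.01 ± 0.12). Among 10 tested genes of retinoic acid signalling, 6 were higher and 0 lower at day 7 (15.7% and 17.3% of all genes), among them Aldh1a2 (1.44 ± 0.44) and Aldh1a1 (1.22 ± 0.35). At day 1, when 13.4% of all genes were higher, 3 of the 10 were (Aldh1a2, Aldh1a3 at 0.83 ± 0.17 and the receptor gene Rara at 0.51 ± 0.11). Aldh1a1 and Aldh1a2 stand in the mesothelial list too and are counted in both. The 6 endothelial markers had median log2 fold changes of 0.15 at day 7 and 0.01 at day 1 against sham.

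The genes with the pattern most like the mean of the 10 over the 9 libraries, among 8571 protein-coding genes with a mean of 5 FPKM or more, were Osr1, Flrt2, Tmem119, Scn7a and Cdon (r of 0.97, 0.96, 0.95, 0.95 and 0.94 with the mean z-score). Osr1, an odd-skipped transcription factor gene, was at 9.32, 9.24 and 8.80 FPKM at day 7, 7.18, 5.997 and 2.31 FPKM at day 1 and 5.71, 1.63 and 2.44 FPKM in sham. As with the surface genes, day 1 replicate 3 and sham replicates 2 and 3 were the low libraries, which follows from picking genes by this pattern. The likeness is a description over libraries in 3 groups, and it includes both the difference between groups and the variation within them.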

How the data were processed

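RNA was measured by bulk sequencing in 9 heart libraries. The labels' protocols name TRIzol for the RNA and a VAHTS Universal V6 kit for the libraries. HISAT2 2.1.0, HTSeq 0.11.2, FastQC 0.11.9 and build GRCm39 are named, per the submitters' processing notes. The deposited values are FPKM per transcript (55361 entries), made by the authors. Of the positive values, 11.8% were under 1e-06, less than a whole read can give, so reads had been divided among transcripts and depth is unknown. FPKM summed to between 521643 and 792632 per library.

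FPKM were summed per gene, giving 25468 genes. Those with a mean of 1 FPKM or more (13514) were transformed to log2(FPKM + 1). limma 3.58.1 (R 4.3.3) then fitted 1 mean per group and a spread shared by the 9 libraries, with a trend on the level. Tests were two-sided. With 3 libraries a side, the smallest p of an exact permutation test is 0.1. The procedure was tested on simulated data. Alternatives were other pseudocounts, filters, scalings, fits and left-out libraries. The members, gene lists and tests were chosen with earlier results of these data known. The 10 genes and at most 3 called genes per list with the largest change were named, plus the 5 with the most similar pattern; 1 gene that the rule names is not reported here. Bnc1, Cdh2, Krt5, Krt17, Muc1, the further uroplakins and single marker genes were named after their values were seen. GENCODE M21 (GRCm38) served only to find overlapping genes, and it lacks the Muc16 entry used here, so Muc16 was not checked.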

Additional observations from a re-analysis of the deposited data

Results flagged for a closer look

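The difference between day 7 and day 1 was itself tested with limma, as the contrast of the 2 times. Wt1 was higher at day 7 than at day 1 by 0.73 on the log2 scale (adjusted p = 0.0394), in 3 of 3 day 7 libraries against all day 1 libraries. Tbx18 was higher by 0.52 (adjusted p = 0.0261) and Muc16 by 1.93 (adjusted p = 0.0280), also without overlap. These calls depended on single libraries and on the processing. With all libraries kept, the limma call of Wt1 was lost without the filter on low values and with the replicate block (adjusted p = 0.066 and 0.084). That of Tbx18 was lost with TPM, a fit of only the 2 groups compared and the replicate block (0.076, 0.072 and 0.059). That of Muc16 was lost with a pseudocount of 0.1 (0.052). The airway covariate ended it for Wt1 and Tbx18 (0.076 and 0.071). Without day 1 replicate 2, day 7 replicate 1 or day 7 replicate 3, 0 of the 10 genes were called between the times. Wt1 stayed called in 14 of 26 alternatives, Tbx18 in 16 of 25 and Muc16 in 19 of 25. Of all genes tested, 13.1% also had every day 7 library above every day 1 library. The responses at the 2 times share their sham libraries.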

How the results depend on the processing

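Over 26 alternatives, the 10 genes and 3 comparisons gave 762 values beside those reported: 655 kept direction and call, 50 lost the call, 22 gained it and 35 changed sign. None of the values that changed sign was called as reported. Those 35 were counted whatever their new call, so Msln at day 1 with the atrial covariate, called at -1.09, is not among the 22. Same-numbered libraries did not deviate together in general (r over 0.1 in 4 of 9 pairs, range -0.37 to 0.27), so the numbers were not taken as pairs. With the replicate block, Krt18 was called at day 7 against sham (1.48, adjusted p = 0.00668) and as 1 of the 10 at day 1 (1.07, adjusted p = 0.0128), and 1 of the 10 (Muc16) was called at day 7 against day 1, where 144 and 93 of all genes were higher and lower. Leaving out 1 library gave 0 to 2 of the 10 higher at day 1, 2 to 7 at day 7 and 0 to 3 at day 7 against day 1. Over all genes the ranges were 968 to 1957 higher and 790 to 2299 lower at day 1, 1124 to 2276 and 1042 to 2618 at day 7, and 75 to 275 and 62 to 244 at day 7 against day 1. Those fits also gave -0.37 to 0.82 for Msln, -0.89 to 0.36 for Upk3b and -0.057 to 0.062 for Tbx18 at day 1, and -0.85 to 0.77 for Krt8, -0.0057 to 0.93 for Krt18 and -0.52 to 0.86 for Krt19 at day 7 against day 1.

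With a pseudocount of 0.1, 3 of the 10 genes were higher at day 7, Msln was at -0.042 at day 1 and Krt8 at 0.13 at day 7 against day 1. A minimum mean of 5 FPKM left 2 of the 10 higher at day 7 and 1 at day 7 against day 1, with 4 of the 10 tested, and 1199, 1310 and 242 of all genes higher at day 1, at day 7 and between the times. With TPM, 601 genes were lower at day 1, 3809 higher and 527 lower at day 7, and 113 and 72 at day 7 against day 1, with Tbx18 at 0.19 at day 1 and Krt8 at 0.071 between the times; this scaling moved the median of all genes by 0.24 at day 1 and 0.31 at day 7. Leaving out mitochondrially encoded genes gave 3583 and 886 at day 1 and 3844 and 1042 at day 7, with Tbx18 at 0.17 and Krt8 at 0.051, and moved that median by 0.205 at day 1 and 0.207 at day 7. Array weights gave 3 of the 10 higher and 3027 genes lower at day 1, 584 and 466 at day 7 against day 1, and Krt18 and Krt19 at -0.00019 and -0.40 there. Counts of all genes not given here for an alternative were of the same order as those reported. Against sham, those were 1817 genes (13.4%) higher at day 1 and 2127 (15.7%) at day 7. A fit of only the 2 groups compared gave 78 and 88 at day 7 against day 1.

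Without sham replicate 1 and day 1 replicate 2, 256 and 146 genes were higher and lower at day 1, 1078 and 1047 at day 7 and 34 and 26 between the times, where 0 of the 10 were called; Upk3b was at 0.15 and Tbx18 at 0.087 at day 1, and Krt8 at 0.77 between the times. Without sham replicate 1 and day 7 replicate 2 the counts were 972 and 829 at day 1, 762 and 544 at day 7, and 123 and 62 between the times, with 1 of the 10 called there, Upk3b at 0.36 and Tbx18 at 0.0186 at day 1. The atrial covariate gave 932 genes and 3 of the 10 lower at day 1, 456 genes lower and 7 of the 10 higher at day 7 against day 1, Msln, Lrrn4 and Krt19 at -1.09, -0.52 and -0.037 at day 1 and Krt8 at 0.28 between the times. The airway covariate gave 1209 genes lower at day 1, 125 and 90 between the times with 1 of the 10, Msln at -0.35 and Tbx18 at 0.031 at day 1 and Krt8 at 0.96 between the times. Both covariates were chosen after seeing the data. The cause of these changes was not tested. With the number of reads unknown, values under 1 FPKM carry an error that cannot be stated.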

Other observations

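Wt1 was at or above 3.0 FPKM in every library, and in sham replicate 3 and day 1 replicate 3 it was the highest of the 10 genes, while Upk3b, Msln or Krt18 led elsewhere except in day 1 replicates 1 and 2, where Upk1b and Krt8 led. The sum of the 10 genes was 79.5 to 86.8 FPKM at day 7, 13.5 to 66.1 FPKM at day 1 and 11.4 to 45.3 FPKM in sham. The membrane mucin gene Muc1, which epithelia express, was at 8.17 FPKM in day 1 replicate 2 and at 0.970 FPKM or less in the other libraries.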
